A study of Homo sapiens with 4 samples.

Results

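The genes described here are 10 imprinted genes, namely H19, MEG3, CDKN1C, GRB10, PEG3, PEG10, NDN, SNRPN, PLAGL1 and MEST. They were taken by symbol from the expression tables of HeyC2 and SKOV3 ovarian cancer cells and are 10 of the 26506 gene symbols measured. Total RNA was sequenced in 4 libraries, 1 for each line and condition. The cells called TET1 overexpressed had been transfected by Lipofectamine 2000 with pCMV6/TET1, a plasmid whose viral CMV promoter drives TET1, and are the TET1-reprogrammed cells. The controls carry the label Wild-type but had received the empty plasmid by the same method, and all 4 cultures were selected with Geneticin. Whether a culture was a clone or a mixed population is not given in the sources used here. There was 1 library per group, so no difference within a line has a replicate check or a p-value. A test was possible only over both lines together, with 1 pair of libraries from each line.

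An imprinted gene is expressed mainly from the copy inherited from a single parent. The choice is written in the germ line as DNA methylation of a control region on the maternal or the paternal chromosome, and this methylation is kept through the life of the body's cells. TET1 oxidises methylated cytosine and has a known part in the erasure of such marks in germ cells. Many imprinted genes act on growth, and several, among them PEG3, PLAGL1 and CDKN1C, are known as growth-restraining genes that are silenced in tumours. Of the genes described, H19, MEG3 and CDKN1C are expressed from the maternal copy, and GRB10 is so only in some tissues. PEG3, PEG10, NDN, SNRPN, PLAGL1 and MEST are expressed from the paternal copy. The tables hold 1 value per gene and do not tell the parental copies apart.

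The values are FPKM, mapped fragments scaled by transcript length and by library depth, so levels can be compared between genes. The deposited TET1 columns had been multiplied by a constant, 3.23 in HeyC2 and 1.35 in SKOV3, that sets GAPDH to its control level. Every FPKM below has this constant taken out. Changes are log2(FPKM + 1) of the TET1-reprogrammed library minus that of the control, less the median change of all genes with a mean of at least 1 FPKM in the line. A gene 1.5-fold or more from that median is called higher or lower. Intervals for levels and FPKM ratios are at 95%, rest on fragment numbers estimated from the values and cover counting error only. The median change itself was 0.06 in HeyC2 and 0.19 in SKOV3 on the log2 scale.

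TET1 mRNA was higher in both TET1-reprogrammed libraries, at 0.20 FPKM in the control and 0.52 FPKM in the TET1 library of HeyC2, and at 0.43 and 1.80 FPKM in SKOV3. The FPKM ratio was 2.60 (interval 1.31 to 5.13) in HeyC2 and 4.19 (2.74 to 6.39) in SKOV3. Transcripts of the plasmid and of the cells' own gene cannot be told apart in these values. The estimated depth was 6600000 to 7300000 fragments per library. The epithelial keratins KRT8 and KRT18 stood at 193 to 775 FPKM and the ovarian lineage factor PAX8 at 74.6 to 195 FPKM over the libraries, while WT1 and MUC16, other markers used for ovarian carcinoma, were at 0 to 0.53 FPKM and CDH1 was listed at 0 in both HeyC2 libraries, where EPCAM was at 0.09 and 0.38 FPKM. Other markers differed between control and TET1 libraries. KRT7 was at 289.68 and 1124.57 FPKM in HeyC2 and at 1537.2 and 21.96 FPKM in SKOV3. In HeyC2 the mesenchymal markers VIM and FN1 were at 7496.18 and 5556.55 FPKM in the control and 2926.91 and 2618.93 FPKM in the TET1 library. Of 7 markers of blood, vessel and stromal cells, 4 to 6 lay below 1 FPKM. Their summed level was 57.4 FPKM in the HeyC2 control, 92.1 FPKM in HeyC2 TET1, 13.8 FPKM in the SKOV3 control and 52.8 FPKM in SKOV3 TET1, of which CD68 made the largest share except in SKOV3 TET1, where COL1A1 reached 27.7 FPKM. The part of these markers in the results below was not tested. In such bulk RNA, a larger share of cells with a transcript and more transcript per cell cannot be told apart.

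The 10 genes differed in whether they were listed above 0. CDKN1C, GRB10, SNRPN, PLAGL1 and PEG10 were above 0 in all 4 libraries, and MEG3, PEG3 and NDN were listed at 0 in all 4. H19 and MEST were listed at 0 in both HeyC2 libraries. In HeyC2, 4 of the 10 genes passed the filter on low values, 1 of them was called higher and 0 lower, where 12.5% of all genes tested were called higher and 9.19% lower. In SKOV3, 6 passed, of which 4 were called higher and 1 lower, against 20.7% and 18.2% of all genes tested. MEST and PEG10 passed in SKOV3 with control levels below 1 FPKM, that is, through the TET1 library. For those above the filter the median change was 0.02 in HeyC2 and 1.06 in SKOV3, beside 0 for all genes tested by construction. Only SNRPN of the 10 was called in both lines, and it was higher in both, as were 3.56% of the genes tested in both.

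The 4 genes measured in both lines were also tested for a shared TET1 effect, by limma with the line as a block, where the spread is the disagreement of the lines (1 residual degree of freedom, moderated over all genes). Of the 11136 genes, 0 (0%) passed at an adjusted p of 0.05, and 882 had an unadjusted p under it. SNRPN had a mean change of 1.59 ± 0.33 (SE) on the log2 scale, with an unadjusted p of 0.00130 and an adjusted p of 0.25 in limma. PLAGL1 had -0.90 ± 0.37 (adjusted p 0.602 in limma), CDKN1C 0.65 ± 0.33 (0.694) and GRB10 0.49 ± 0.42 (0.804).

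**Figure D1:**
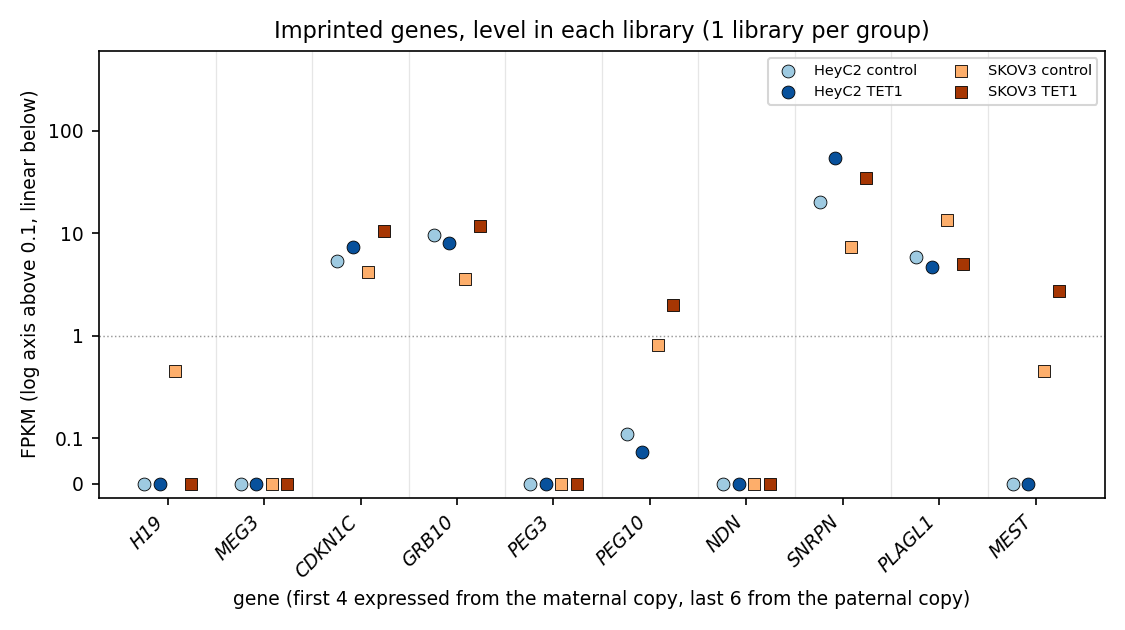
Level of the 10 imprinted genes in FPKM in each of the 4 libraries (log axis above 0.1, linear below), with circles for HeyC2, squares for SKOV3 and dark symbols for TET1-reprogrammed cells. SNRPN stands higher in the TET1 library of both lines, PLAGL1 stands at 13.39 FPKM in the SKOV3 control and 5.01 FPKM in SKOV3 TET1, and MEG3, PEG3 and NDN lie at 0 throughout.

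The sequence just before the transcription start was available for 7 of the 10 genes in a RefSeq table on GRCh38.p14, and CDKN1C, PEG3 and PEG10 had no entry. The window of 250 bases upstream was taken, at the start with most CpG where a gene has several, so it need not be the start used in these cells or the imprinted one. The windows of the 4 genes with a called change and an entry are shown because CpG is the site of the methylation that TET1 acts on. Each is written 5′ to 3′ on the gene's strand, with CpG in capitals.
SNRPN: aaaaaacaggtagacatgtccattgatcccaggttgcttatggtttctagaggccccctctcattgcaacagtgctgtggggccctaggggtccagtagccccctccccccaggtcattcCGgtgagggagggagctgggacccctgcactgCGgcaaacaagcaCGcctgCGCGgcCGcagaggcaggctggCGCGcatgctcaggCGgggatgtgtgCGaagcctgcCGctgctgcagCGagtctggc
GRB10: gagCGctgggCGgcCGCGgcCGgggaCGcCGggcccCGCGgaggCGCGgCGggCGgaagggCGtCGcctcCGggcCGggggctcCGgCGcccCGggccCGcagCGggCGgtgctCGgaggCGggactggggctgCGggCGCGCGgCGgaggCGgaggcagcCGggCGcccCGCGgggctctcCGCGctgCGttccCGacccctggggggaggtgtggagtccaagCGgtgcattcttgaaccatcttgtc
PLAGL1: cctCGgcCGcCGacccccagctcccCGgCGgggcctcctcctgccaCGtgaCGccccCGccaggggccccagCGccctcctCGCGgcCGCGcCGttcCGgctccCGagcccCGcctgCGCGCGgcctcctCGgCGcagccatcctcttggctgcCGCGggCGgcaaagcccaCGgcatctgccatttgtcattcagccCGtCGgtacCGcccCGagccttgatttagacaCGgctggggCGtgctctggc
MEST: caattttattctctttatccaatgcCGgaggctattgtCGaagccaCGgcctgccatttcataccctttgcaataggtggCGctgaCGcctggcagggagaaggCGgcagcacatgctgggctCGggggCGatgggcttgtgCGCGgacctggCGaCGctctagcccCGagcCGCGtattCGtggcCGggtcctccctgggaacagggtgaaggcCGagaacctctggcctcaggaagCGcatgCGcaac
The SNRPN window is chr15:24954737-24954986 on the plus strand and is also the window of SNURF. It holds 12 CpG, the same as the median of 12 over 27305 genes (quartiles 3 and 24). The GRB10 window, chr7:50792875-50793124 on the minus strand, holds 40 CpG, more than that of 97.4% of genes. PLAGL1 has 32 CpG at chr6:144008260-144008509 on the minus strand, and MEST has 20 CpG at chr7:130486097-130486346 on the plus strand.

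The sequence TGCCGC (on the other strand GCGGCA), which is bound by the imprint-keeping zinc finger protein ZFP57 when methylated, was searched on both strands. SNRPN and PLAGL1 held 2 matches each, MEST, MEG3 and NDN 1 each, and GRB10 and H19 0. The windows of 13.6% of all genes hold it. Of the other windows, NDN had 30 CpG, MEG3 13 and H19 4. A match is a description of the letters only. ZFP57 mRNA itself, named after its values were seen, was listed at 0 in every library. Genes listed at 0 and genes above 0 were both found among those with the hexamer, since MEG3 and NDN were listed at 0 in every library.

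SNRPN, which codes for the spliceosomal protein SmN and is the best known paternally expressed gene of the Prader-Willi region, lies at chr15:25068784-25223870 on the plus strand (GRCh37). It stood at 20.24 FPKM in the HeyC2 control, 53.47 FPKM in HeyC2 TET1, 7.41 FPKM in the SKOV3 control and 34.20 FPKM in SKOV3 TET1. Both TET1-reprogrammed libraries were above both controls. The FPKM ratio was 2.64 (2.23 to 3.13) in HeyC2 and 4.62 (3.52 to 6.05) in SKOV3. Relative to all genes, SNRPN was 2.46-fold higher in HeyC2 and 3.66-fold higher in SKOV3, a change of 1.30 and 1.87 on the log2 scale. That placed it 260th from the top of 11896 genes in HeyC2 and 291st of 13016 genes in SKOV3. The central 95% of all genes ran from -1.04 to 1.21 in HeyC2 and from -1.42 to 1.81 in SKOV3, so SNRPN lay outside it in each line.

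SNURF, whose short reading frame is carried on the same transcript as SNRPN, was at 22.44, 56.48, 8.23 and 36.34 FPKM in the same order of libraries. Its change was 1.24 in HeyC2 and 1.82 in SKOV3 on the log2 scale. Reads from the shared transcript can be divided between both symbols by RSEM, so the values of the pair are not independent and the share of each is uncertain. SNRPB, which codes for the close relatives SmB and SmB′ of SmN, was at 98.12, 119.77, 307.98 and 232.22 FPKM and was called lower in SKOV3, with changes of 0.23 and -0.60. That call is near the limit. It was lost without centring and, with the same value, without the filter (-0.41). It was also lost with a filter of 5 FPKM (-0.50) and in the deposited columns (-0.57). Reads of such similar genes can be exchanged between them, so the levels of both are uncertain.

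Next to SNRPN on chromosome 15 lie other genes of the Prader-Willi and Angelman region. Of the 10 genes of that cluster, 2 of the 3 that passed in HeyC2 were called higher (SNRPN and SNURF), as were 3 of the 5 that passed in SKOV3 (with ATP10A), and 0 were called lower in either line. The shares called higher among all genes tested were 12.5% and 20.7%, and SNRPN and SNURF count for a single transcript. The noncoding RNA PWAR5, chosen after its values were seen, is read from the same strand downstream of SNRPN, at chr15:25230200-25233379 (GRCh37). It stood at 1.01 and 4.0 FPKM in HeyC2 and at 0.40 and 0.94 FPKM in SKOV3. Its FPKM ratio was 3.96 (2.48 to 6.77) in HeyC2 and 2.35 in SKOV3, where the interval of 0.980 to 5.70 included 1. IPW, a noncoding RNA further downstream and also chosen after its values were seen, was at 0.38 and 1.57 FPKM in HeyC2 and 0.52 and 1.53 FPKM in SKOV3. PWARSN, chosen in the same way, was at 0.66, 1.63, 0.09 and 0.83 FPKM. These 3 RNAs were above their control in the TET1 library of each line, and all were low. The noncoding RNA PWAR1 was at 0.13 FPKM in HeyC2 TET1 and listed at 0 in the other 3 libraries, and PWRN1 was listed at 0 in all 4.

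The other genes of the region gave a mixed picture. UBE3A, the ubiquitin ligase gene of Angelman syndrome, was at 9.96, 9.38, 14.16 and 14.56 FPKM and was called in neither line, with changes of -0.14 and -0.15. ATP10A, a lipid-transporting ATPase, was listed at 0 in both HeyC2 libraries and at 1.34 and 4.89 FPKM in SKOV3, where it was called higher (1.14). NDN (necdin, a growth-restraining MAGE-family protein) and MAGEL2 were listed at 0 in all 4 libraries. MKRN3 was at 0.94 FPKM in the SKOV3 control and at 0 in the other libraries. Of 4 genes that flank the imprinted region (NIPA1, NIPA2, CYFIP1 and TUBGCP5, chosen after the values were seen), none was called in HeyC2 and NIPA2 was called lower in SKOV3 (-0.89).

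**Figure D2:**
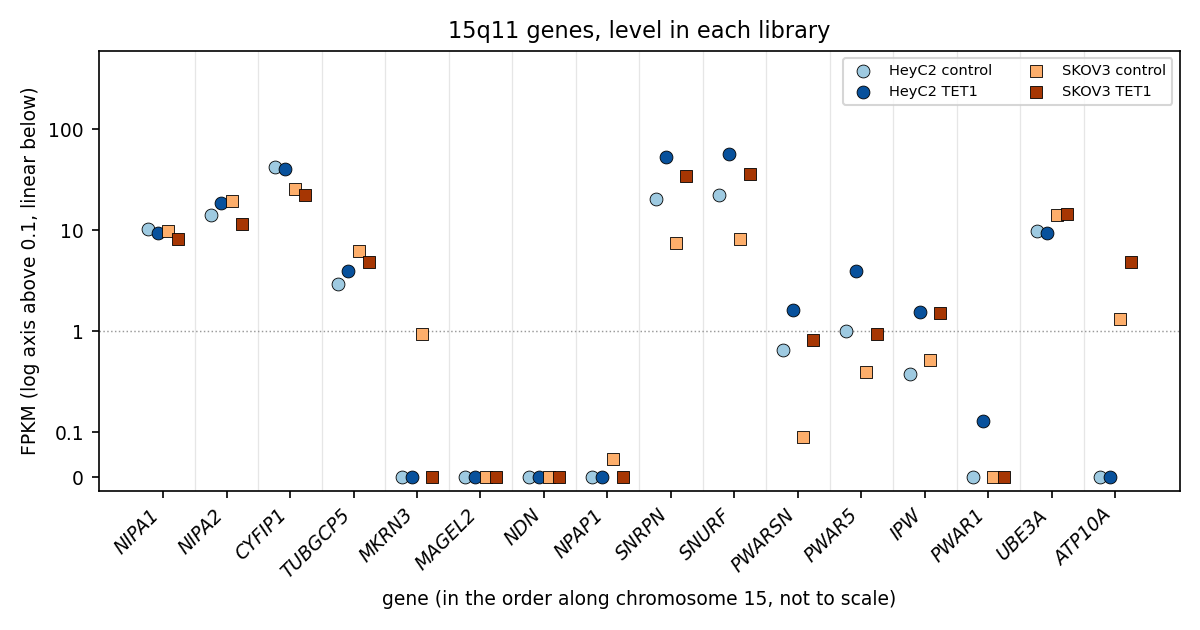
Level in FPKM (log axis above 0.1, linear below) of 16 genes in their order along chromosome 15, with circles for HeyC2, squares for SKOV3 and dark symbols for TET1-reprogrammed cells. SNRPN, SNURF and the noncoding RNAs PWARSN, PWAR5 and IPW stand higher in the TET1 library of each line, while UBE3A stays between 9.38 and 14.56 FPKM and MAGEL2 and NDN are at 0.

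CDKN1C, at chr11:2904443-2907005 on the minus strand (GRCh37), codes for p57, an inhibitor of cyclin-dependent kinases. Its level was 5.30 FPKM in the HeyC2 control, 7.25 FPKM in HeyC2 TET1, 4.17 FPKM in the SKOV3 control and 10.54 FPKM in SKOV3 TET1. The TET1 library was the higher in each line, but in HeyC2 the FPKM ratio of 1.37 had an interval of 0.970 to 1.94. In SKOV3 the ratio was 2.53 (1.78 to 3.60). Relative to all genes the change was 0.33 in HeyC2, which was not called, and 0.97 in SKOV3, a called difference of 1.95-fold.

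H19 is a long noncoding RNA at chr11:2016396-2025782 on the minus strand (GRCh37), in the same chromosome band, 11p15. It was at 0.45 FPKM in the SKOV3 control and listed at 0 in the other 3 libraries. That level corresponds to about 3 fragments and has an interval of 0.0935 to 1.33 FPKM, and the count of 0 in SKOV3 TET1 has an interval that reaches 0.601 FPKM, so a difference was not detectable at this depth. IGF2, the growth factor gene that shares its enhancers with H19, was listed at 0 in both HeyC2 libraries and in the SKOV3 control. In SKOV3 TET1 it reached 1.07 FPKM, about 39 fragments, against a level of 0.0764 FPKM for 3 fragments in the control. It was chosen after its values were seen and lay below the filter.

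The other genes of 11p15 were called in different directions. PHLDA2, a maternally expressed gene that restrains placental growth, was at 137.16 and 93.98 FPKM in HeyC2 and 84.40 and 35.47 FPKM in SKOV3, and was called lower in both lines (-0.60 and -1.42), as were 2.54% of the genes tested in both. The HeyC2 call is near the limit. It was lost without centring and, with the same value, without the filter (-0.54). It was also lost with a filter of 5 FPKM (-0.58) and in the deposited columns (-0.47). SLC22A18, a transporter gene beside it, was at 5.81, 4.76, 2.55 and 10.26 FPKM and was called higher in SKOV3 (1.47) but not in HeyC2 (-0.30). The 10 genes of 11p15 were grouped here by chromosome band only. Of them, 7 passed in each line, of which 0 were higher and 1 lower in HeyC2 and 2 higher and 2 lower in SKOV3. The shares over all genes tested were 12.5% and 9.19% in HeyC2 and 20.7% and 18.2% in SKOV3.

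GRB10 codes for an adaptor that binds and restrains the insulin and IGF1 receptors and lies at chr7:50657760-50861159 on the minus strand (GRCh37). It was at 9.49 FPKM in the HeyC2 control and 7.97 FPKM in HeyC2 TET1, and at 3.59 FPKM in the SKOV3 control and 11.65 FPKM in SKOV3 TET1. The SKOV3 control was the lowest of the 4 libraries and SKOV3 TET1 the highest. The FPKM ratio was 0.840 (0.718 to 0.986) in HeyC2 and 3.25 (2.67 to 3.96) in SKOV3. Relative to all genes, GRB10 was 2.41-fold higher in SKOV3 (1.27), which was called, and not called in HeyC2 (-0.28). The difference between the lines was not tested. Its neighbour COBL, listed at 0 in HeyC2, was at 1.95 and 4.57 FPKM in SKOV3 and was called higher there (0.72), chosen after its values were seen.

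PLAGL1, also called ZAC1, codes for a zinc finger transcription factor that restrains growth and lies at chr6:144261437-144385736 on the minus strand (GRCh37). Its level was 5.88 FPKM in the HeyC2 control, 4.64 FPKM in HeyC2 TET1, 13.39 FPKM in the SKOV3 control and 5.01 FPKM in SKOV3 TET1. The SKOV3 control stood apart above the other 3 libraries. The FPKM ratio was 0.374 (0.296 to 0.468) in SKOV3 and 0.789 (0.603 to 1.04) in HeyC2. Relative to all genes, PLAGL1 was 2.74-fold lower in SKOV3 TET1 (-1.45), 298th from the bottom of 13016 genes, and was not called in HeyC2 (-0.34). It was the only one of the 10 called lower in either line. HYMAI, the noncoding RNA of the same locus, was at 0.04 to 0.12 FPKM in every library.

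MEST codes for a protein with the fold of an alpha/beta hydrolase and is expressed in the mesoderm of the embryo. The gene, at chr7:130126012-130146306 on the plus strand (GRCh37), was listed at 0 in both HeyC2 libraries. In SKOV3 it was at 0.45 FPKM in the control and 2.71 FPKM in the TET1 library, about 8 and 45 fragments. The FPKM ratio was 6.02 (2.83 to 14.9) and the change relative to all genes 1.16 on the log2 scale, or 2.24-fold, which the pseudocount of 1 makes smaller than the ratio. Near MEST, the carboxypeptidase gene CPA4 was called lower in SKOV3, at 6.07 and 1.10 FPKM (-1.94), and was at 0.36 and 0.12 FPKM in HeyC2.

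PEG10, a gene derived from a retrotransposon and needed in the placenta, lies at chr7:94285637-94299007 on the plus strand (GRCh37). It was at 0.11 and 0.07 FPKM in HeyC2, no more than 2 fragments in either library, and at 0.81 and 1.98 FPKM in SKOV3. The SKOV3 ratio was 2.44 (1.28 to 4.99), but with the pseudocount the change was 0.53 and PEG10 was not called. SGCE, which shares a promoter region with PEG10 and is also expressed from the paternal copy, was at 27.24, 45.21, 20.03 and 30.46 FPKM, was called higher in HeyC2 (0.65) and was not called in SKOV3 (0.39). SGCE was chosen after its values were seen. PON2, a paraoxonase gene of the same cluster, was at 18.32, 23.01, 18.80 and 52.54 FPKM and was called higher in SKOV3 (1.24).

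**Figure D3:**
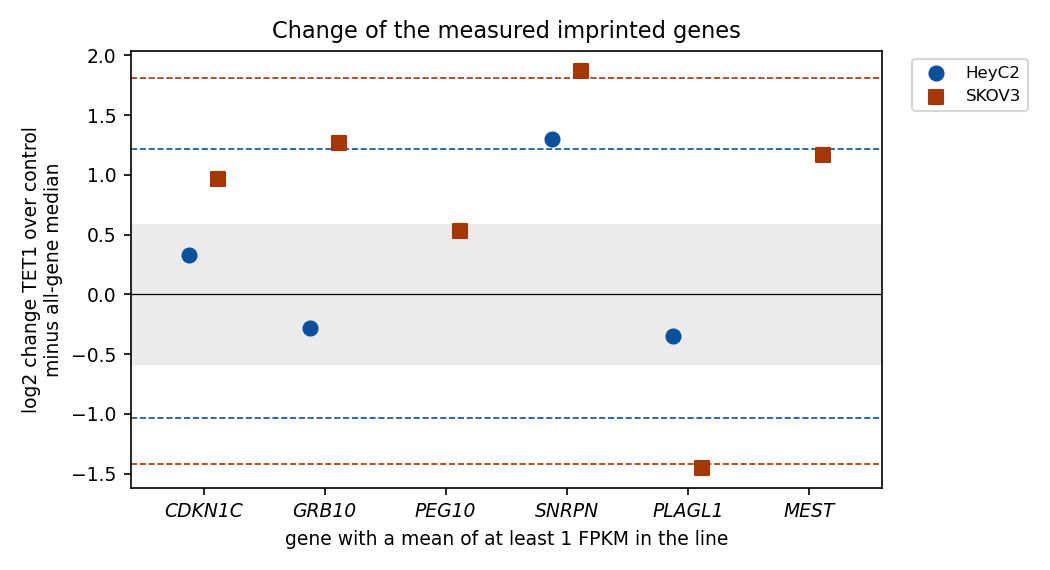
Change of the 6 genes measured in at least 1 line, as log2(FPKM + 1) of TET1 minus control less the all-gene median, with circles for HeyC2 and squares for SKOV3. The grey band is the range below 1.5-fold and the dashed lines bound the central 95% of all genes, and SNRPN lies above the upper bound in each cell line while PLAGL1 lies below the lower bound in SKOV3.

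MEG3 and PEG3, a growth-restraining noncoding RNA at chr14:101245747-101327368 on the plus strand and a zinc finger gene at chr19:57321445-57352096 on the minus strand (GRCh37), were listed at 0 in all 4 libraries, as was NDN at chr15:23930547-23932452 on the minus strand. For these 3 genes the level of 3 fragments was 0.0478 to 1.02 FPKM, lowest for the long PEG3 transcript and highest for MEG3. Expression below those levels was not detectable at this depth. None of 20 genes that every cell uses was at 0, and the lowest of them was at 5.70 FPKM. Their neighbours were largely at 0 as well. All 6 genes of the MEG3 cluster (with DLK1, RTL1, MEG8, MEG9 and DIO3) were listed at 0 in both lines. In the PEG3 cluster 5 of 6 were listed at 0, and ZNF264, the exception and chosen after its values were seen, was at 1.18 to 4.73 FPKM.

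**Figure D4:**
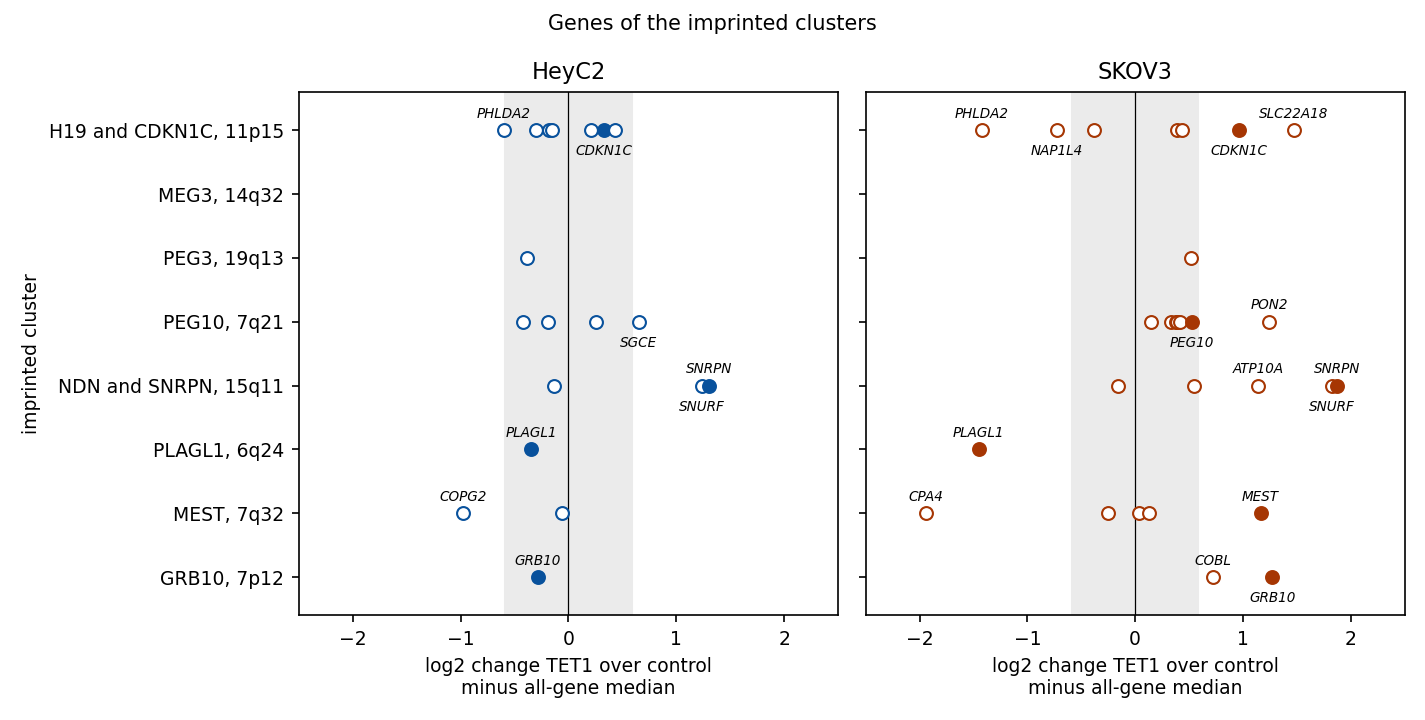
Change of each gene that passed the filter in the 8 imprinted clusters, as log2(FPKM + 1) of TET1 minus control less the all-gene median, for HeyC2 at the left and SKOV3 at the right, with filled points for the 10 genes described, open points for their neighbours and a grey band for changes below 1.5-fold. The MEG3 cluster has no point because its 6 genes were at 0, SNRPN and SNURF lie to the right in both lines, and PHLDA2 lies to the left in both.

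The order of levels within a library placed SNRPN at the top in 3 of the 4 libraries. In the HeyC2 control SNRPN was higher than 86.3% of all genes or level with them, and in HeyC2 TET1 that share was 94.5%. It was followed in the HeyC2 control by GRB10, PLAGL1 and CDKN1C, of which the last 2 did not differ beyond their counting intervals (4.93 to 6.97 and 4.09 to 6.80 FPKM). In HeyC2 TET1 the order was SNRPN, GRB10, CDKN1C and PLAGL1, and GRB10 (7.07 to 8.97 FPKM) and CDKN1C (5.76 to 9.09 FPKM) could not be told apart. The SKOV3 control was the exception, with PLAGL1 at the top (78.7% of genes at or below it), then SNRPN (71.1%), then CDKN1C and GRB10 with overlapping intervals. The intervals of PEG10, H19 and MEST also overlapped there. In SKOV3 TET1 the order was SNRPN (89.7%), GRB10 and CDKN1C, which overlapped, then PLAGL1, then MEST and PEG10, which overlapped.

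The empty-plasmid control cultures of the lines differed in some of these genes. Set against all genes, SNRPN was 3.04-fold and GRB10 2.75-fold higher in the HeyC2 control than in the SKOV3 control, which are 2 of the 4 imprinted genes that passed the filter over both controls. Of all genes tested, 18.6% were at least 2-fold higher in HeyC2 and 17.8% at least 2-fold higher in SKOV3, 36.4% in all. PLAGL1 (-0.80) and CDKN1C (0.55) were not called. The lines were processed as separate tables, so these values are side by side levels and no test.

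Genes whose levels over the 4 libraries were most like those of a member were found by the distance in log2(FPKM + 1). SNRPN was nearest to SNURF (distance 0.23), then to SKIL (0.47), with only 3 genes within 0.5. GRB10 was nearest to SNTB1 (0.23) and FOXO4 (0.35), with 11 genes within 0.5. PLAGL1 was nearest to TYRO3 (0.28) and LOC648987 (0.30), with 8 genes, and CDKN1C to ZBTB47 (0.14) and TRNT1 (0.17), with 45 genes. With only 4 libraries such closeness is a description of levels.

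Of 44 measured neighbours in the 8 clusters, 15 passed in HeyC2, with 2 called higher and 2 lower and a median of -0.16, and 22 passed in SKOV3, with 5 higher and 3 lower and a median of 0.38. Among 18 imprinted genes from other loci, 1 was higher and 1 lower of 12 that passed in HeyC2 (median 0.12), and 2 were higher and 6 lower of 14 in SKOV3 (median -0.42). The shares over all genes tested were 12.5% higher and 9.19% lower in HeyC2, and 20.7% and 18.2% in SKOV3. Of the 6 lower calls in SKOV3, 2 were left without centring, and the same 2 without the filter, where the changes of single genes were the same. IGF2R, the receptor that clears IGF2 from the cell surface, was at 32.30 and 20.54 FPKM in HeyC2 and 42.15 and 22.27 FPKM in SKOV3 and was called lower in both lines (-0.69 and -1.08). The tumour suppressor RB1 was at 23.70, 19.97, 33.90 and 18.10 FPKM and was called lower in SKOV3 (-1.06) but not in HeyC2 (-0.29). GNAS, the gene of the stimulatory G protein alpha subunit and the highest of this list at 649.8 to 874 FPKM, was called in neither line (0.37 and -0.03).

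Genes that write, keep or remove DNA methylation at imprints were called in either direction. Of 17, 12 passed in HeyC2 (1 higher, 1 lower, median -0.03) and 13 in SKOV3 (3 higher, 3 lower, median -0.37). Among all genes tested, 12.5% were higher and 9.19% lower in HeyC2, and 20.7% and 18.2% in SKOV3. The 3 called higher in SKOV3 include TET1 itself, the gene carried by the plasmid, which passed the filter there through the TET1 library. In HeyC2, TET1 lay below the filter. The maintenance methyltransferase DNMT1 was at 24.51 and 20.61 FPKM in HeyC2 and 81.53 and 39.17 FPKM in SKOV3, with changes of -0.30 and -1.23. UHRF1, which brings DNMT1 to newly copied DNA, was at 11.94, 14.42, 42.14 and 15.63 FPKM (0.19 and -1.57). The de novo methyltransferase DNMT3B was at 5.52 and 2.74 FPKM in HeyC2 and 8.59 and 49.45 FPKM in SKOV3, and was called lower in HeyC2 (-0.86) and higher in SKOV3 (2.2). The chromatin remodeller HELLS, at 3.47, 6.36, 8.68 and 4.01 FPKM, was called in opposite directions too (0.66 and -1.14). TRIM28, the corepressor that binds ZFP57, was the highest of this list at 107 to 249.8 FPKM and was called in neither line (-0.18 and -0.42).

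Relatives of the members and genes of the pathways they act in were also followed. Of 10 relatives, 7 passed in HeyC2 (0 higher, 2 lower, median -0.08) and 8 in SKOV3 (2 higher, 1 lower, median 0.05). CDKN1A, which codes for p21 and is a relative of CDKN1C, was at 397.41 and 211.82 FPKM in HeyC2 and 10.34 and 19.75 FPKM in SKOV3, lower in the former (-0.96) and higher in the latter (0.68). Of 11 partner genes of GRB10, IGF2 and CDKN1C, 9 passed in HeyC2 (1 higher, 2 lower, median -0.14) and 10 in SKOV3 (0 higher, 5 lower, median -0.53). Beside both lists, 12.5% of all genes tested were called higher and 9.19% lower in HeyC2, and 20.7% and 18.2% in SKOV3. CCNA2, the gene of cyclin A2, a partner of CDK2, was lower in both lines. It was at 9.37 and 2.75 FPKM in HeyC2 and at 92.71 and 21.31 FPKM in SKOV3 (-1.53 and -2.26). The cyclin E genes gave values of either sign, with changes of -1.18 in HeyC2 and -0.14 in SKOV3 for CCNE1, and of 0.73 and -1.08 for CCNE2. IRS2, an insulin receptor substrate, was called lower in SKOV3 (-1.02) but not in HeyC2 (-0.06), and IGF2BP2, an RNA-binding protein of IGF2 mRNA at 117.43, 110.54, 29.08 and 31.09 FPKM, was called in neither (-0.14 and -0.10).

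**Figure D5:**
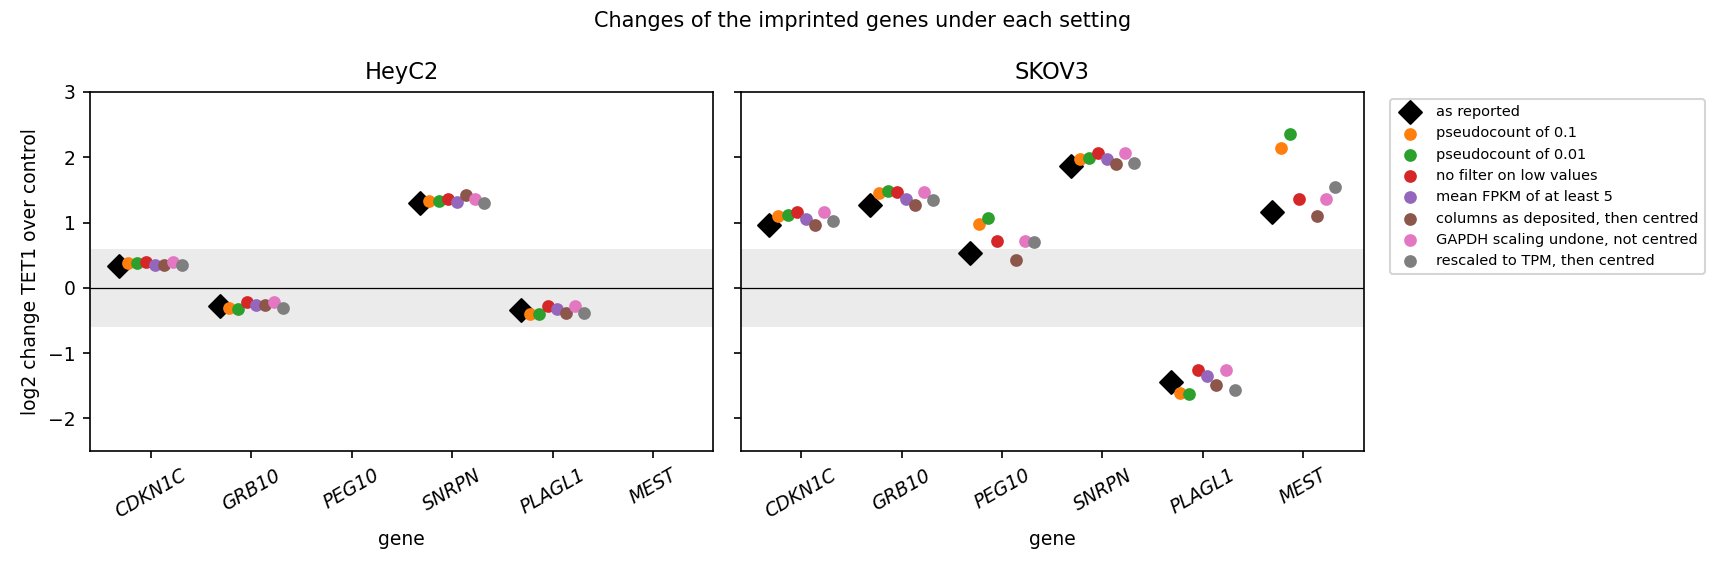
Change of the imprinted genes on the log2 scale under each processing setting, with the reported value as a black diamond and a coloured point for each alternative, for HeyC2 at the left and SKOV3 at the right. No gene changes sign, SNRPN stays above the grey 1.5-fold band in both lines, PEG10 in SKOV3 lies on either side of the edge of the band, and MEST in SKOV3 ranges from 1.09 to 2.35.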

How the data were processed

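RNA of HeyC2 and SKOV3 cells was sequenced as paired-end TruSeq libraries, 1 per line and condition. The deposited values are FPKM, which the authors made with Bowtie2 2.2.6 and RSEM 1.2.17 on hg19 per the labels, in 1 table per line. The annotation, the strand setting and read totals are not given in the sources used here. The deposited FPKM of the TET1 columns had been multiplied so that GAPDH equals its control (5417.35 and 2248.44 FPKM). The constant was recovered from the value steps of 0.01 FPKM (99.8% of 1220 distinct values below 40 FPKM on the grid in HeyC2, 100% of 2637 in SKOV3) and divided out, so that the pseudocount weighs equally on both columns.

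Changes were log2(FPKM + 1) differences over genes with a mean of at least 1 FPKM in the line, less their median. Calls were 1.5-fold, or 2-fold between the control lines. Fragment totals were estimated from the steps of low FPKM values, with canonical GENCODE transcripts on GRCh37. Counting intervals are exact Poisson for levels and exact binomial for ratios, at 95%. Promoter windows came from RefSeq on GRCh38.p14. No test was made within a line, with 1 library per group. Over both lines, limma 3.58.1 in R 4.3.3 was fitted to the genes measured in both, with the line as a block, as a test chosen after the data were seen. The pairing is that of the cell line. Python 3.11.15, numpy 2.4.6, pandas 2.3.3, scipy 1.17.1 and matplotlib 3.10.9 were used. On simulated data of 26506 genes, 100 of 100 planted 4-fold and 100 of 100 planted 2-fold changes were called in each line. The changes were planted in genes with control levels above those of nearly all the imprinted genes described, and only counting error was simulated. The simulation therefore does not cover genes at low levels or spread between cultures, and false calls were not counted.

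The genes and lists were chosen with earlier results of these data known. Named were all 10 members and, of each list, genes called in both lines or at least 2-fold from the median in 1 line, the gene with the highest FPKM, and the 2 genes nearest to each member measured in both lines. Other genes are said to have been chosen after their values were seen, as were UBE3A, MAGEL2, MKRN3, PWRN1, SNRPB, HYMAI and the neighbours listed at 0 with MEG3. COPG2IT1 was not matched by symbol and is not analysed here. The alternatives were pseudocounts of 0.1 and 0.01, no filter or a filter of 5 FPKM, calls at 1.2- or 2-fold, the columns as deposited, no centring, and rescaling to TPM.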

Additional observations from a re-analysis of the deposited data

Results flagged for a closer look

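Of 60 genes of the lists that were measured in both lines, 12 had changes of opposite sign in the TET1-reprogrammed cells of HeyC2 and SKOV3 and were called in at least 1 of them. No difference between the lines was tested, since each is the difference of 1 library from 1 library. Over all genes tested, 21.7% were called in HeyC2 and 38.8% in SKOV3, in either direction. The share of all genes with opposite signs and a call was not computed, so the 12 are a list and not an excess. GRB10 changed by -0.28 in HeyC2 and 1.27 in SKOV3 on the log2 scale. In 4 of the 12 the gene was called in each line, with 0.66 and -1.14 for HELLS, -0.86 and 2.2 for DNMT3B, -0.96 and 0.68 for CDKN1A, and 0.73 and -1.08 for CCNE2. The others were called in a single line, as was GRB10. SLC22A18 had -0.30 and 1.47, UHRF1 0.19 and -1.57, and NIPA2 0.32 and -0.89. BLCAP had 0.39 and -0.66, HM13 0.54 and -0.77, SNRPB 0.23 and -0.60, and COPG2 -0.98 and 0.037. The SKOV3 calls of BLCAP, HM13 and SNRPB were lost without centring (-0.47, -0.57 and -0.41).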

How the results depend on the processing

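With 1 library per group, no replicate could be left out. In limma over both lines, a test chosen after the data were seen, 0 of 4 genes passed an adjusted p of 0.05 with the line as a block and 0 with no replicate block, where SNRPN had an adjusted p of 0.25 and 0.999. Of 56 values on the counts and medians of the 10 genes under the alternatives, 53 moved by less than the limit set for them. The other 3 moved further. Most of the 56 are counts, which have no sign and so could not reverse. With no filter on low values, the median change of the genes in SKOV3 was 0.36, where the genes listed at 0 enter, against 1.06. With calls at 1.2-fold, 2 genes were higher and 2 lower in HeyC2, against 1 and 0. The count called higher in SKOV3 was 3 to 5 over all alternatives, against 4, with PEG10 near the limit (0.43 to 1.06). Of 68 values for single genes, 2 moved, both for MEST in SKOV3, which was at 2.14 and 2.35 with pseudocounts of 0.1 and 0.01, and 0 reversed. Of 180 values for the other lists, 47 moved. All of these are counts, so a reversal was not possible. Without centring, genes called higher made up 71.3% of all called in SKOV3 and 66.3% in HeyC2, against 53.2% and 57.7%. Without the filter these shares were 72.3% and 67.0%. The change of a single gene was the same without the filter as without centring, so these settings are not separate checks. The calls rest on 1 library per group, so spread between cultures is not covered, and genes at 0 limit what can be said of H19, MEG3, PEG3 and NDN.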

Other observations

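Among imprinted genes from other loci, 4 were listed at 0 in the HeyC2 control, and they are given here although they were chosen after their values were seen. L3MBTL1, a paternally expressed polycomb-like gene, was at 1.07 FPKM in HeyC2 TET1 and at 1.57 and 4.15 FPKM in SKOV3. FAM50B, a paternally expressed retrogene, was at 1.19 FPKM in HeyC2 TET1 and at 14.07 and 9.62 FPKM in SKOV3. There it was called lower (-0.70), a call that was lost without centring (-0.50). TP73 was at 0.15 FPKM in HeyC2 TET1 and at 0.62 and 0.47 FPKM in SKOV3. DIRAS3, a growth-restraining gene often silenced in ovarian cancer, was listed at 0 in HeyC2 TET1 as well and was at 0.16 and 0.25 FPKM in SKOV3. The transporter gene SLC22A3, detected in each library, was at 0.97 and 2.59 FPKM in HeyC2 and at 0.05 and 0.15 FPKM in SKOV3. In HeyC2 it was called higher (0.81). It passed the filter there with a control level below 1 FPKM, that is, through the TET1 library, and it lay below a filter of 5 FPKM.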
